A study of Mus musculus with 54 samples.

Results

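Cathepsins are the proteases of the endosomes and lysosomes, and 10 of their genes, Ctsa, Ctsb, Ctsc, Ctsd, Ctse, Ctsh, Ctsk, Ctsl, Ctss and Ctsz, were followed here across 15 conditions of mouse macrophages. They were taken by symbol from 39179 counted genes, with earlier results of these data known, and each of the 10 symbols matched 1 gene. All 10 passed the filter on low counts in both experiments, Ctse with few reads.

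The cells were thioglycolate-elicited peritoneal macrophages of C57BL/6 mice aged 8 to 20 weeks, that is, cells that had entered the inflamed peritoneum. They were collected by lavage 4 days after thioglycolate, with adherence as the purification step. In the polarization experiment, macrophages from 3 mice were left untreated (M0), polarized with LPS and IFNg (M1-like, 100 ng/ml and 50 ng/ml) or with IL-4 (M2-like, 10 ng/ml) for 24 h, and each culture was sequenced in 2 technical replicates. In the reprogramming experiment, with 12 groups of 3 samples, M0, M1-like and M2-like macrophages were left untransfected or received transfection reagent only (mock), and M2-like macrophages also received a negative siRNA pool, a pool against E2f1, Myc, Pparg or Stat6, or those 4 pools together. The combined knockdown is named iM1, for induced M1-like, and transfected cells were collected 48 h after transfection. Per the paper, M2-like cells were polarized with IL-4 for 24 h before transfection and cultured without IL-4 after it. The 2 experiments were also sequenced at different sites, with single-end reads in the first and paired-end reads in the second. The time at which untransfected groups of that experiment were collected was not given in the sources used here. The labels do not say that its 3 samples a group came from separate mice, so p-values there measure the spread between these samples. No group carried a genetic modification, and every group was a mixed adherent population and not a sorted or cloned one.

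Cathepsins are made as inactive precursors, tagged with mannose 6-phosphate in the Golgi, carried to acidic compartments and activated there by cleavage. Cathepsins B, C, H, K, L, S and Z are cysteine proteases, D and E are aspartic proteases and A is a serine carboxypeptidase. In macrophages they digest engulfed proteins, cut the invariant chain (Cd74) from MHC class II molecules and, once secreted, act on the extracellular matrix. Cystatins and related proteins block the cysteine cathepsins.

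In GENCODE annotation of GRCm38, the protein-coding genes followed here are Ctsd (ENSMUSG00000007891, chr7:142375911-142388038, - strand), Ctse (ENSMUSG00000004552, chr1:131638306-131675505, + strand), Ctsl (ENSMUSG00000021477, chr13:64359337-64370890, - strand), Ctss (ENSMUSG00000038642, chr3:95526786-95556403, + strand), Ctsk (ENSMUSG00000028111, chr3:95499256-95509362, + strand). The others are Ctsb (ENSMUSG00000021939, chr14:63122462-63145923, + strand), Ctsc (ENSMUSG00000030560, chr7:88278085-88310888, + strand), Ctsh (ENSMUSG00000032359, chr9:90054152-90076089, + strand), Ctsz (ENSMUSG00000016256, chr2:174427493-174439039, - strand) and Ctsa (ENSMUSG00000017760, chr2:164832873-164841032, + strand). Counts covered their exons as a whole, so isoforms were not separated.

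Libraries held 19714994 to 29880494 counted reads in the polarization experiment and 13421854 to 19704195 in the reprogramming experiment. Technical replicates differed by no more than 1.10 chi-square units a gene, close to sampling noise, and were summed. Among biological replicates, the M2-like culture of mouse 1 stood apart at 24 h (47.4 and 52.3 chi-square units a gene from mice 2 and 3), as did replicate 3 of the M0 mock group and replicate 1 of the untransfected M1-like group in the other experiment. The siRNA targets fell in their own knockdown groups, to 25.2% of the negative pool for E2f1, 38.0% for Myc, 21.9% for Pparg and 27.3% for Stat6, and, in the same order, in iM1 to 60.4%, 39.6%, 28.3% and 53.9%. The Myc pool also left Pparg at 65.2%, the E2f1 pool at 79.6% and the Stat6 pool at 78.4%. M2-like mock cells held 134% of the E2f1 of the negative pool, and M1-like mock cells 17.4% of its Myc. The macrophage markers Adgre1, Csf1r, Cd68, Itgam, Lyz2, Mertk and Cd14 were detected in every group. In such bulk samples, fewer cells of a type and less RNA per cell cannot be told apart.

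The 10 genes took a large share of the macrophage transcriptome. Their reads made up 5.93 to 6.23% of all counted reads in M0 cultures at 24 h, 5.14 to 5.54% in M2-like cultures and 2.91 to 2.97% in M1-like cultures, so the M1-like share lay below both others. In the reprogramming experiment, the share was highest with the negative pool, at 6.90 to 7.27%. The lowest shares there were those of the Myc knockdown, 4.85 to 5.25%, and iM1, 4.88 to 5.30%, below every library of the negative pool.

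**Figure D1:**
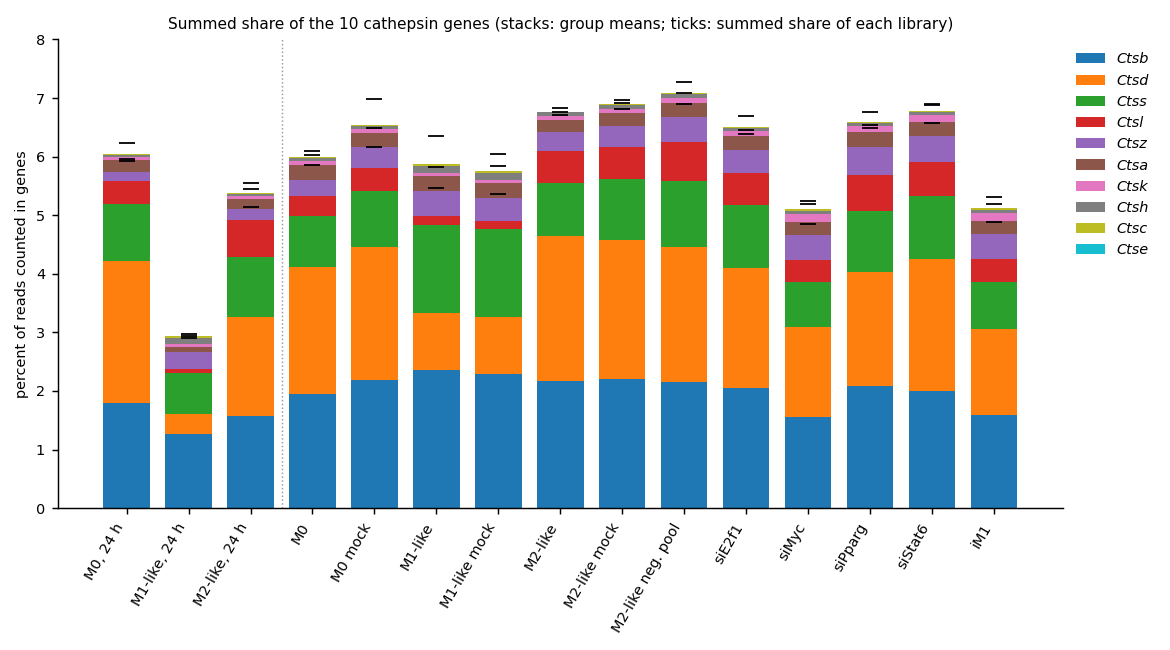
Percent of counted reads (vertical axis) taken by the 10 cathepsin genes in the 15 conditions, with the mean share of each gene stacked and a tick for the summed share of each of the 3 replicates. The 24 h M1-like cultures sit at 2.91 to 2.97%, below every other library.

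Ctsd, Ctsb, Ctss and Ctsl had the most reads in M0 cultures. As RPKM, reads scaled for exon length and library size, M0 macrophages at 24 h held 9328 ± 449 of Ctsd (mean ± SD, n = 3 mice), the main lysosomal aspartic protease, 6508 ± 123 of Ctss, 2699 ± 124 of Ctsb and 1022 ± 37.9 of Ctsz. Ctsl followed at 547 ± 34.3, Ctsa at 388 ± 11.3, Ctsk at 295 ± 21.0, Ctsh at 77.3 ± 0.702 and Ctsc at 19.7 ± 0.239. Ctse, an aspartic protease best known from stomach and lymphoid cells, stood at 1.27 ± 0.0553 RPKM and was last in each of the 15 conditions. The replicate ranges of 16 of the 135 pairs of neighbours in these orders overlapped, so those pairs were not separated by level. They included Ctss and Ctsd in M2-like cultures at 24 h, Ctsd and Ctsb in both M1-like groups of the reprogramming experiment, and Ctsd and Ctss in iM1 and the Myc knockdown. With the longest transcript as the length in place of all exons, 30 of 150 positions changed, but Ctse kept the last place throughout.

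The leading gene changed with polarization. Within a library, the ratio of Ctss to Ctsd in RPKM, which does not depend on how libraries are scaled to each other, was 0.674 to 0.716 in M0, 0.959 to 1.19 in M2-like and 3.26 to 3.82 in M1-like macrophages at 24 h. Untransfected M1-like macrophages of the reprogramming experiment had 2.55 to 2.78, and M2-like ones 0.613 to 0.661. In iM1 the ratio was 0.898 to 1.04, near that of the negative pool (0.825 to 0.888) and far from that of M1-like cells.

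**Figure D2:**
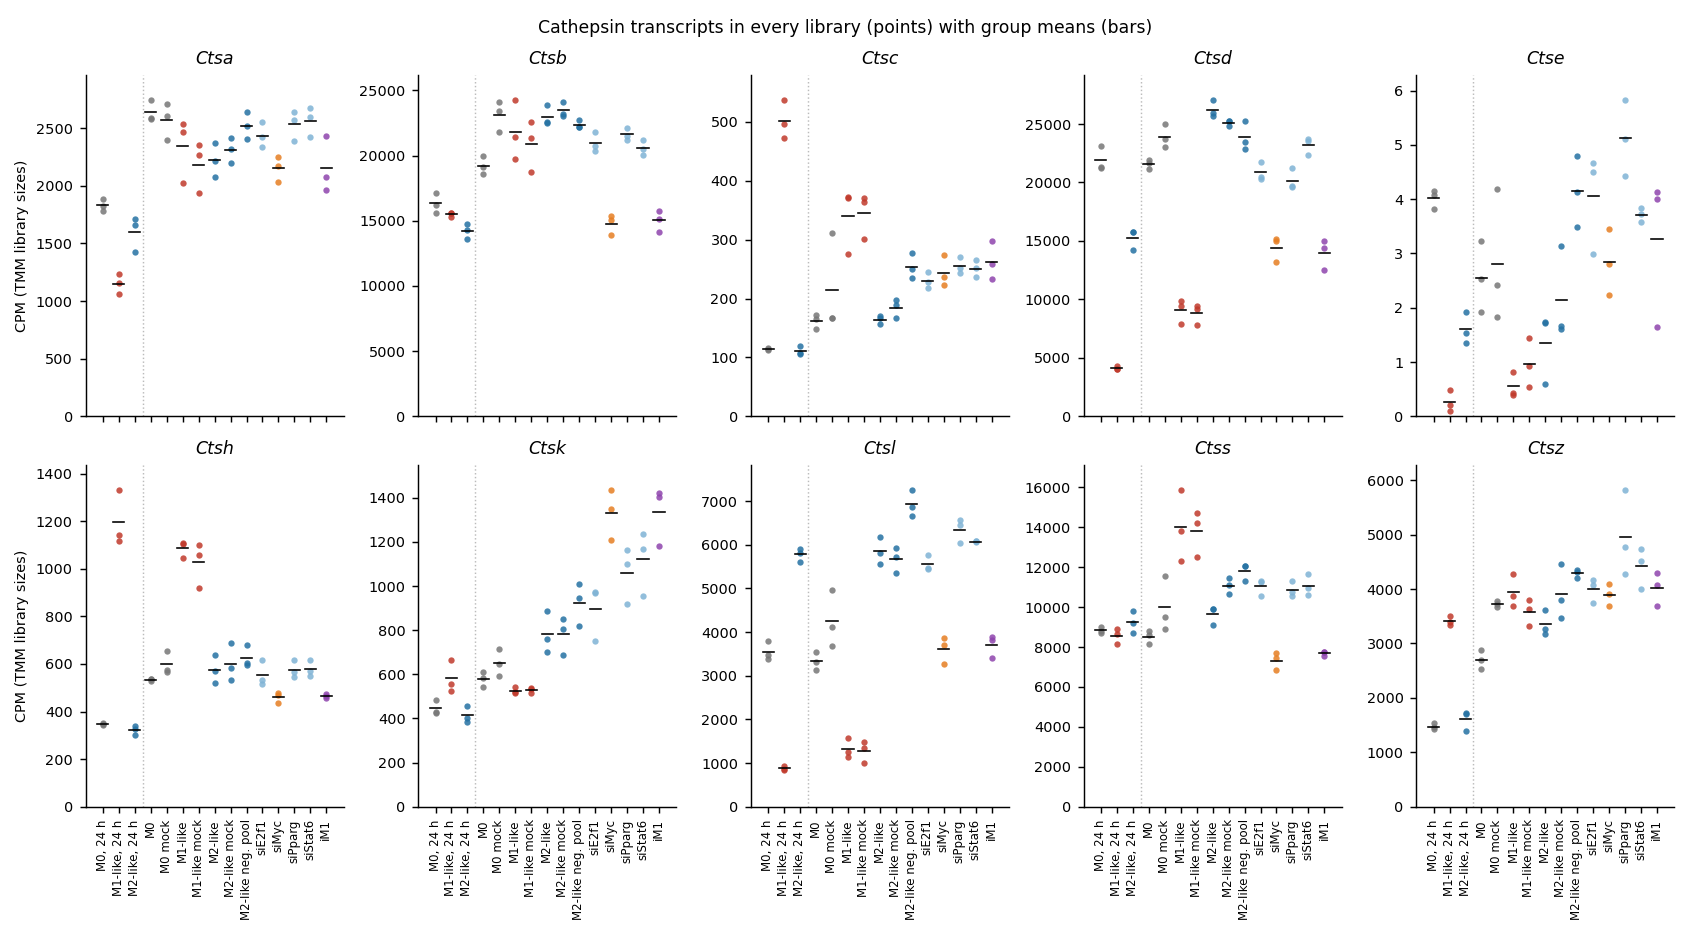
CPM (counts scaled to library size with TMM factors) of each cathepsin gene in every library (points) and as group means (bars), with the polarization experiment left of the dotted line and the reprogramming experiment right of it. M1-like groups (red) have the lowest means of each experiment for Ctsd and Ctsl and the highest for Ctsc and Ctsh, while the Myc knockdown (orange) and iM1 (purple) have the lowest means of the reprogramming experiment for Ctsb and Ctss and the highest for Ctsk.

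Promoter windows of 7 of the 10 genes were held by the RefSeq promoter table (GRCm38.p6), each running from 250 bases before to 50 bases after the annotated start. Those of Ctsb, Ctse and Ctsh were not used here. The windows, of which Ctsa had 2, were searched on both strands for CACGTG, the E-box that both MYC-MAX dimers and the MiT/TFE lysosomal factors can bind, for its extended form TCACGTGA, for the gamma-activated site TTCNNNGAA, for TTCNNNNGAA, the spacing STAT6 prefers, and for GAAANNGAA, the core of the interferon-stimulated response element. TCACGTGA contains CACGTG, so their matches overlap. Capitals mark exact matches, and the stretches are shown because MYC and STAT6, targets of the Myc and Stat6 siRNA pools, can bind some of these motifs. Motifs of E2F1 and PPARG were not searched. For Ctsa, Ctsd and Ctsl the 30 bases around a match are given:
Ctsa (chr2:164833757-164833786, + strand): ctgTCACGTGAtgcagatgcTCACGTGAcc
Ctsd (chr7:142387907-142387936, - strand): cgcccgcgtcTCACGTGAcccgttgagggc
Ctsl (chr13:64370738-64370767, - strand): gcgttagaagcCACGTGctgatctaaattc

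The 250 bases before the starts of Ctsc and Ctss each held 1 match to an interferon-type motif:
Ctsc (chr7:88277835-88278084, + strand): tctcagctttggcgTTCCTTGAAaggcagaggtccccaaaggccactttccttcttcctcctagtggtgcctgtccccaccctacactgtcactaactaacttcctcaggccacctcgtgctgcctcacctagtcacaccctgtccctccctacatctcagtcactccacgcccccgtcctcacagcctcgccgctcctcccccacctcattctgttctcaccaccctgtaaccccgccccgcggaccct
Ctss (chr3:95526536-95526785, + strand): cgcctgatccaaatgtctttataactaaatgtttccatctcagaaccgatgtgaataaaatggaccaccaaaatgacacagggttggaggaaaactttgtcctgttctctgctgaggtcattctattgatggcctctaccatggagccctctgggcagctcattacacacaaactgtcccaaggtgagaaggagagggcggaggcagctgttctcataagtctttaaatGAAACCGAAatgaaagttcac

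CACGTG stood in the Ctsa window from which bases are shown and in the windows of Ctsd and Ctsl, against 7.15% of 32851 windows of the same length. Ctsd held a further CACGTG at position -245 from the start. TCACGTGA stood in the same Ctsa window (2 matches) and in that of Ctsd, against 0.974%. TTCNNNGAA matched in Ctsc and GAAANNGAA in Ctss, against 8.30% and 8.56% of windows. TTCNNNNGAA, present in 6.95% of windows, matched in none of the 7 genes. The other Ctsa window and the windows of Ctsk and Ctsz held no match to any of the 5 motifs. A match is a description of these letters and not of binding. Ctsk and Ctss are direct neighbours on chromosome 3 (GRCm38), both on the + strand, with 17424 bases and no annotated gene between them.

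The polarization experiment asked how macrophages treated with LPS and IFNg differ from those treated with IL-4 at 24 h. M1-like macrophages had 4 cathepsin transcripts higher (Ctsc, Ctsh, Ctsz and Ctsk) and 4 lower (Ctsl, Ctse, Ctsd and Ctsa) than M2-like ones, while Ctsb and Ctss did not pass the test. Changes were common in this comparison, with 34.6% of all genes tested higher and 38.1% lower. The median log2 fold change of the 10 genes was 0.01, against -0.06 over all genes tested.

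The aspartic proteases fell in M1-like cells. Values are CPM, counts scaled to library size with TMM factors. Ctsd was 23149, 21275 and 21366 CPM in the M0 cultures of mice 1, 2 and 3, 14208, 15751 and 15729.6 CPM in the M2-like and 4322, 4051 and 4038 CPM in the M1-like cultures. All 3 M1-like values lay below all others, and Ctsd was 3.68-fold lower than in M2-like cells (log2 fold change -1.88 ± 0.06, edgeR adjusted p = 7.64e-11; ± SE here and below). Ctse fell from 1.53, 1.93 and 1.36 CPM in M2-like to 0.216, 0.485 and 0.104 CPM in M1-like cultures (log2 fold change -2.62 ± 0.33, edgeR adjusted p = 1.81e-05), and stood at 3.82, 4.08 and 4.15 CPM in M0.

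Among the cysteine endopeptidases, Ctsl, which cuts proteins inside lysosomes, showed the widest gap. Its values were 5812, 5613 and 5905 CPM in M2-like, 3463, 3386 and 3804 CPM in M0 and 925, 869 and 830.1 CPM in M1-like cultures. The 3 conditions did not overlap, and M1-like cells held 6.60-fold less than M2-like cells (log2 fold change -2.72 ± 0.07, edgeR adjusted p = 6.81e-12). Ctss, the protease that completes invariant chain cleavage in antigen-presenting cells, gave 8142, 8649.9 and 8918 CPM in M1-like cells and 9779, 9216 and 8717 CPM in M2-like cultures, which overlapped (log2 fold change -0.11 ± 0.06, edgeR adjusted p = 0.121). Ctsb, an abundant lysosomal endopeptidase and carboxydipeptidase, gave 15566, 15314 and 15588 CPM in M1-like cells and 13608, 14738 and 14267 CPM in M2-like cultures (log2 fold change 0.12 ± 0.05, edgeR adjusted p = 0.0538).

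Ctsk, a collagen-degrading protease of osteoclasts that macrophages also make, was 665, 556 and 524 CPM in M1-like cells and 458, 402 and 384 CPM in M2-like cultures (log2 fold change 0.49 ± 0.10, edgeR adjusted p = 0.000715). This rise depended on the scaling. TMM, which assumes that most genes do not change, gave the M1-like libraries factors of 0.809 to 0.836 and the M2-like ones 1.09 to 1.12, so that scaling by total counts alone moved the median of all genes by -0.44 on the log2 scale. By total counts, an alternative chosen after seeing the data, Ctsk was at 0.05 (edgeR adjusted p = 0.606), Ctsb turned to -0.31 (edgeR adjusted p = 0.000177) and Ctss reached -0.54 (edgeR adjusted p = 2.19e-06). With size factors by RLE or with DESeq2, Ctsb was called higher in M1-like cells (0.16 and 0.16, with adjusted p = 0.0184 by edgeR and DESeq2 adjusted p = 0.0106). The other 7 genes kept direction and call under each of these scalings. Fibroblast and mesothelial markers (Msln, Upk3b, Col1a1 and Col3a1) summed to 2.46 to 3.85 CPM in M1-like cultures, with Upk3b at 0 in all 3. In M2-like cultures they summed to 8.47 to 11.0 CPM, and their part in the Ctsk values was not tested.

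Ctsc, Ctsh and Ctsz, which trim proteins from their ends, rose in M1-like cells. Ctsc, the dipeptidyl peptidase that activates granule serine proteases, was 537, 473 and 496 CPM in M1-like cultures, 120.0, 107 and 107 CPM in M2-like and 116, 113 and 114 CPM in M0 cultures, 4.52-fold above the M2-like level (log2 fold change 2.17 ± 0.07, edgeR adjusted p = 5.68e-11). Ctsh, an aminopeptidase, rose from 302, 338 and 328 to 1143, 1116 and 1330.2 CPM, 3.70-fold (log2 fold change 1.89 ± 0.08, edgeR adjusted p = 4.88e-10). Ctsz, a carboxypeptidase, rose from 1398, 1730.1 and 1696 to 3349, 3387 and 3504 CPM, 2.12-fold (log2 fold change 1.09 ± 0.08, edgeR adjusted p = 1.18e-07). For all 3 genes every M1-like culture exceeded every M2-like and M0 culture. The dendritic cell markers were Flt3, Zbtb46, Xcr1, Ccr7 and Cd209a, none at 0 throughout a group. They summed to 29.0 to 39.9 CPM in M1-like cells and 4.13 to 11.5 CPM in M2-like cultures. Most of the M1-like sum was Ccr7, which reached 36.6 CPM in the 24 h cultures. The highest values of the others there were 3.57 CPM (Zbtb46), 3.14 (Cd209a), 0.645 (Xcr1) and 0.533 (Flt3). Of 4 markers tested between these 2 states, 2 rose, 1 fell and 1 was not called by edgeR. The part of these markers in the rises of Ctsc, Ctsh and Ctsz was not tested.

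Ctsa, the serine carboxypeptidase that also protects the lysosomal enzymes beta-galactosidase and neuraminidase, was 1422, 1657 and 1713 CPM in M2-like and 1237, 1158 and 1058 CPM in M1-like cultures (log2 fold change -0.47 ± 0.08, edgeR adjusted p = 0.000227). Its exons share 10.5% of their bases with Pltp and 6.87% with Neurl2 on the opposite strand, and the strand setting of the counting is not given in the sources used here. Pltp differed by 0.18 in this comparison (edgeR adjusted p = 0.103), while Neurl2 fell by 1.58 on the log2 scale (edgeR adjusted p = 1.99e-06), as Ctsa did, and its part in the Ctsa value was not tested. Of Ctsb exon bases 12.8% are shared in the same way with Fdft1, which fell by 1.47 on the log2 scale in M1-like cells. Ctsd shares 34.4% of its exon bases with the annotated gene Gm49369 and Ctsl 26.8% with the antisense gene Gm47123, neither used here.

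Against M0, M1-like cells had Ctsc (2.13), Ctsh (1.78), Ctsz (1.21) and Ctsk (0.38) higher and Ctse (-3.94), Ctsd (-2.41), Ctsl (-2.02) and Ctsa (-0.67) lower on the log2 scale, against 35.4% and 37.5% of all genes tested. Ctsk again lost its rise by total counts, at -0.05 (edgeR adjusted p = 0.661), while Ctsb and Ctss then passed as lower. Both comparisons share the M1-like cultures.

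With IL-4 alone, 4 of the 10 genes passed. Against M0, M2-like cultures had Ctsl higher, 5812, 5613 and 5905 against 3463, 3386 and 3804 CPM (log2 fold change 0.70 ± 0.07, edgeR adjusted p = 1.66e-05), and 3 genes lower, against 13.5% and 14.4% of all genes. Ctse fell from 3.82, 4.08 and 4.15 to 1.53, 1.93 and 1.36 CPM (log2 fold change -1.32 ± 0.23, edgeR adjusted p = 0.00143) and Ctsd from 23149, 21275 and 21366 to 14208, 15751 and 15729.6 CPM (log2 fold change -0.53 ± 0.06, edgeR adjusted p = 9.00e-05), in both cases without overlap. The small fall of Ctsb (log2 fold change -0.20 ± 0.05, edgeR adjusted p = 0.0160) was not held with the mouse as a block (edgeR adjusted p = 0.0542), nor without the M0 culture of mouse 1 (0.102) or mouse 2 (0.0622). Without the M2-like culture of mouse 1, which stood apart, the 4 calls were kept and Ctsz also passed as higher (0.22, edgeR adjusted p = 0.00727).

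The reprogramming experiment repeated the 3 states with another read type and sequencing site. Its transfected cells were cultured for longer, the M2-like ones without IL-4 after transfection. The collection time of its untransfected groups was not given. Untransfected M1-like macrophages had Ctsc, Ctsh, Ctss and Ctsz higher and Ctsl, Ctsd, Ctse and Ctsk lower than M2-like ones, against 31.3% and 30.2% of all genes. Between the mock groups, Ctsc, Ctsh and Ctss were higher and Ctsl, Ctsd, Ctse, Ctsk and Ctsb lower, against 30.9% and 29.8%. For no gene of the 10 did the M1-like against M2-like difference itself differ between mock and untransfected cells by edgeR's interaction test (background 1.13% of all genes, estimates -0.36 to 0.11, lowest unadjusted and edgeR adjusted p 0.0108 and 0.392 for Ctsz, the only one with an unadjusted p under 0.05).

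Ctsl and Ctsd again carried the wide gaps. Ctsl was 5809, 6185 and 5562 CPM in M2-like and 1571, 1144 and 1264 CPM in M1-like samples (log2 fold change -2.14 ± 0.11, edgeR adjusted p = 7.06e-17), and 5709, 5928 and 5357 CPM in M2-like mock against 1481, 1003 and 1352 CPM in M1-like mock samples. Ctsd was 25902, 25712 and 27068 CPM in M2-like and 9883, 7917 and 9396 CPM in M1-like samples (log2 fold change -1.53 ± 0.08, edgeR adjusted p = 5.83e-17). The lowest M2-like sample exceeded the highest M1-like sample for both genes, with and without mock transfection. Ctse fell as well (log2 fold change -1.28 ± 0.49, edgeR adjusted p = 0.0245), but its M1-like samples (0.427, 0.402 and 0.820 CPM) overlapped the M2-like ones (1.72, 1.74 and 0.595 CPM). The Ctse call was lost without M1-like replicate 1 or 2 or M2-like replicate 1 or 2 (edgeR adjusted p 0.0827 to 0.115) and by total counts (0.0505).

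Ctsc was 276, 372 and 371 CPM in M1-like cells and 168, 169.5 and 156 CPM in M2-like samples, 2.07-fold higher (log2 fold change 1.05 ± 0.15, edgeR adjusted p = 4.45e-07), and Ctsh was 1047, 1105 and 1107 CPM against 569, 521 and 637 CPM, 1.89-fold higher (log2 fold change 0.92 ± 0.09, edgeR adjusted p = 1.28e-10). Both gaps were narrower than in the polarization experiment, where the same genes had risen 4.52-fold and 3.70-fold, a difference between experiments that was not tested. Ctss rose here, from 9886, 9109 and 9893 to 15856, 12299.5 and 13822 CPM (log2 fold change 0.54 ± 0.08, edgeR adjusted p = 1.90e-06), and in the mock samples from 10665, 11454 and 11106 to 14728, 12511 and 14203 CPM (log2 fold change 0.32 ± 0.08, edgeR adjusted p = 0.00164). Dendritic cell markers were low in both groups, summing to 1.32 to 2.32 CPM in M1-like cells and 2.84 to 4.06 CPM in M2-like samples. Ctsz differed little (log2 fold change 0.24 ± 0.09, edgeR adjusted p = 0.0311), lost its call without M1-like replicate 3 or M2-like replicate 1 or 2 (edgeR adjusted p 0.0882 to 0.154), with RLE factors (0.0507) or with the 2 groups fitted alone (0.119), and did not pass between the mock groups (log2 fold change -0.13 ± 0.09, edgeR adjusted p = 0.253).

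Ctsk went the other way from the 24 h cultures. It was 513, 541 and 519 CPM in M1-like cells and 885, 699 and 759 CPM in M2-like samples (log2 fold change -0.57 ± 0.11, edgeR adjusted p = 5.46e-05), and 536, 531 and 517 CPM in M1-like mock against 852, 689 and 807 CPM in M2-like mock samples (log2 fold change -0.57 ± 0.11, edgeR adjusted p = 6.64e-05). Every M1-like sample lay below every M2-like sample. By total counts, Ctsk stayed lower in M1-like cells here (-0.38, edgeR adjusted p = 0.00299), a scaling that moved the median of all genes by 0.19. The fibroblast and mesothelial marker sum moved the same way, 14.3 to 50.9 CPM in M1-like cells and 48.6 to 217 CPM in M2-like samples, with none of the 4 genes at 0 throughout a group, and its part in Ctsk was not tested.

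Ctsa and Ctsb did not separate the untransfected states (0.08 and -0.07 on the log2 scale, edgeR adjusted p = 0.454 and 0.379). By total counts Ctsa passed as higher in M1-like cells (0.27, edgeR adjusted p = 0.00183). Between the mock groups Ctsb was called slightly lower (log2 fold change -0.17 ± 0.07, edgeR adjusted p = 0.0454), a call lost without M1-like mock replicate 2 or 3 or any of the 3 M2-like mock samples (edgeR adjusted p 0.0566 to 0.284) and turned to 0.05 by total counts. The Ctse call between the mock groups was lost without M1-like mock replicate 2 (edgeR adjusted p = 0.0877) or M2-like mock replicate 1 (0.144).

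**Figure D3:**
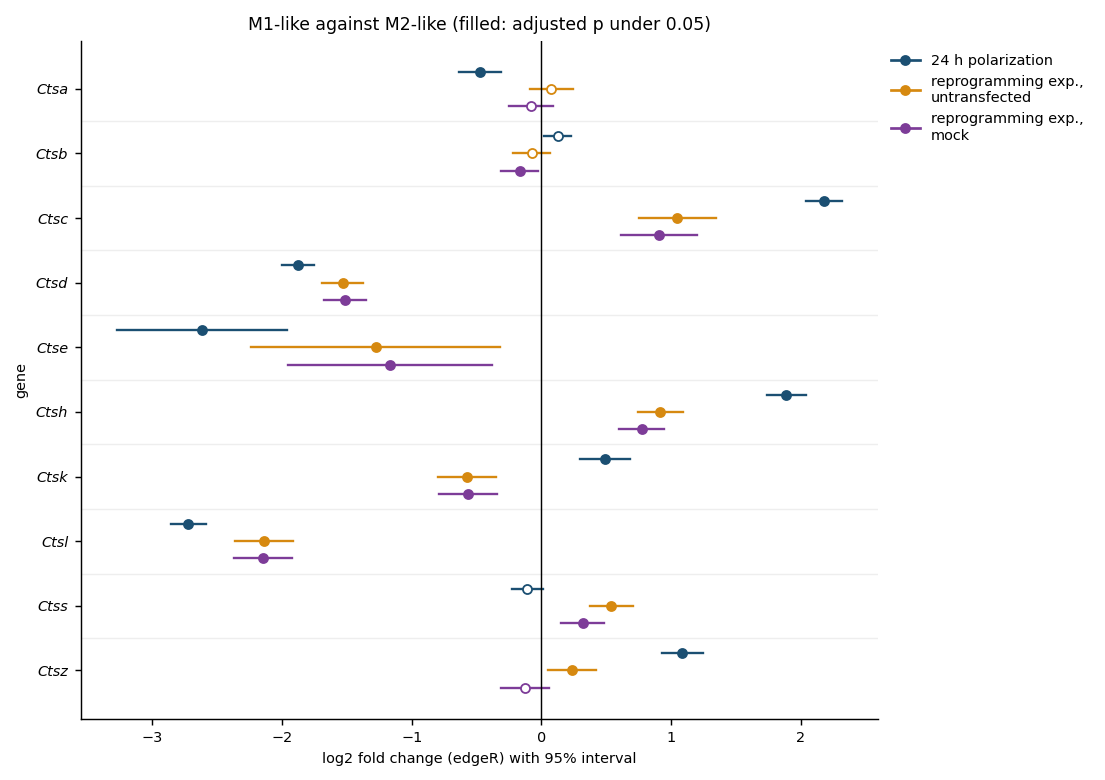
Log2 fold change (horizontal axis) of M1-like against M2-like macrophages for each cathepsin gene at 24 h and in the untransfected and mock groups of the reprogramming experiment, with 95% intervals (1.96 SE) and filled points where edgeR's adjusted p was under 0.05. Ctsl, Ctsd and Ctse lie left of 0 and Ctsc and Ctsh right of 0 in all 3 comparisons, while Ctsk changes side between the experiments.

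Untransfected M1-like samples against M0 had Ctsc, Ctsh, Ctss, Ctsz and Ctsb higher and Ctse, Ctsl and Ctsd lower, against 29% and 28.7% of all genes. The Ctsb rise was small (log2 fold change 0.18 ± 0.07, edgeR adjusted p = 0.0304) and was lost without M0 replicate 2 or 3 or M1-like replicate 1 (edgeR adjusted p 0.0726 to 0.262). Without M1-like replicate 1, which stood apart, Ctsa passed as lower (-0.23, edgeR adjusted p = 0.0375). Between the mock groups, Ctsh (0.78), Ctsc (0.68) and Ctss (0.47) were higher and Ctsl (-1.73), Ctse (-1.55), Ctsd (-1.44), Ctsk (-0.30) and Ctsa (-0.24) lower, against 30.3% and 30%. By total counts, Ctsk and Ctsa lost that call (edgeR adjusted p = 0.465 and 0.758). Ctsk also lost it without M0 mock replicate 1 (0.116) or M1-like mock replicate 3 (0.0569), and Ctsa without M0 mock replicate 2 (0.0804) or M1-like mock replicate 2 (0.144).

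Untransfected M2-like samples had Ctsl (log2 fold change 0.82 ± 0.11, edgeR adjusted p = 1.84e-06), Ctsk (0.43), Ctsz (0.31), Ctsd (0.28) and Ctsb (0.26) higher than M0 and Ctsa (-0.25) lower, against 10.7% and 9.19% of all genes. Of these 6, only Ctsl kept its adjusted p under 0.05 in every alternative fit, and none of the 6 reached 1 log2 unit. Without M0 replicate 2, Ctsb, Ctsd, Ctsz and Ctsa lost theirs (edgeR adjusted p = 0.0645, 0.0536, 0.104 and 0.0645). Ctsk lost its call without M2-like replicate 1 (0.0618), Ctsz also without M0 replicate 3 (0.0566) or M2-like replicate 3 (0.0962), and Ctsa without M0 replicate 1 or 3 or M2-like replicate 1 or 2 (0.0694 to 0.172). Between mock groups, Ctsl alone passed (log2 fold change 0.41 ± 0.11, edgeR adjusted p = 0.0274), against 2.19% of all genes higher, and it did not without M0 mock replicate 1 or 2 or M2-like mock replicate 1 or 2 (edgeR adjusted p 0.0788 to 0.200).

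Mock groups were set against untransfected groups of the same state. The collection time of the untransfected groups was not given, so transfection and a difference in culture time cannot be told apart here. In M0 macrophages, mock transfection went with higher Ctsz (2884, 2534 and 2694 to 3673, 3774 and 3729 CPM; log2 fold change 0.46 ± 0.09, edgeR adjusted p = 0.000521), Ctsb (log2 fold change 0.27 ± 0.07, edgeR adjusted p = 0.00778) and Ctsl (log2 fold change 0.35 ± 0.11, edgeR adjusted p = 0.0202), against 11.7% of all genes. Without M0 mock replicate 3, which stood apart and held 311 CPM of Ctsc against 167 and 166 in its group, Ctsz and Ctsb kept their calls and Ctsl did not (edgeR adjusted p = 0.172). Ctsl also lost it without M0 replicate 1 or 2 (0.0871 and 0.0568). In M1-like and M2-like macrophages no cathepsin gene passed by edgeR (0 and 2 at an unadjusted p under 0.05, and none by DESeq2), where 0% and 1.77% of all genes passed. The negative siRNA pool against mock raised Ctsc (167, 197 and 189 to 235, 250.3 and 276 CPM; log2 fold change 0.46 ± 0.15, edgeR adjusted p = 0.0399), against 6.67% of all genes, but that call was lost without M2-like mock replicate 1 or 3 or any single negative pool sample (edgeR adjusted p 0.0537 to 0.156).

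The knockdown comparisons asked whether removing 4 transcription factors shifts M2-like macrophages towards the M1-like state. Against the negative pool, iM1 had Ctsl, Ctsd, Ctss, Ctsb, Ctsh and Ctsa lower and Ctsk higher, with 13.9% of all genes lower and 12.5% higher. The Myc knockdown alone moved the same 7 genes in the same directions, with 15.6% and 13.9% of all genes, and both comparisons share the negative pool samples. Per the paper, the Myc pool came from Dharmacon and the E2f1, Pparg and Stat6 pools from siTools Biotech. Only the Myc knockdown and iM1 received the Dharmacon pool, so its target and its source cannot be told apart. The median log2 fold change of the 10 genes was -0.39 in iM1 and -0.49 in the Myc knockdown, against 0.01 and 0.00 over all genes tested.

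Ctsl fell from 6868, 6648 and 7248 CPM with the negative pool to 3867, 3697 and 3273 CPM with the Myc pool (log2 fold change -0.94 ± 0.11, edgeR adjusted p = 1.27e-07) and 3816, 3896 and 3396 CPM in iM1 (log2 fold change -0.90 ± 0.11, edgeR adjusted p = 2.77e-07). Ctsd fell from 25254, 22851 and 23471 to 15141, 14969 and 13211 CPM (log2 fold change -0.72 ± 0.08, edgeR adjusted p = 4.06e-08) and 14968, 14409 and 12545 CPM in iM1 (log2 fold change -0.77 ± 0.08, edgeR adjusted p = 1.28e-08). No library of either knockdown reached the negative pool samples for these genes, whose direction was that of M1-like cells.

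Ctss and Ctsh fell as well, against the M1-like direction of this experiment. Ctss was 12037, 11295 and 12045 CPM with the negative pool, 7688, 7428 and 6839.8 CPM with the Myc pool and 7765, 7728 and 7533 CPM in iM1 (log2 fold change -0.62 ± 0.08, edgeR adjusted p = 1.57e-06), whereas it rose in untransfected and mock M1-like cells. Ctsb was 22689, 22182 and 22226 CPM with the negative pool, 15379, 15069 and 13869.5 CPM with the Myc pool and 15772, 15146 and 14145 CPM in iM1 (log2 fold change -0.57 ± 0.07, edgeR adjusted p = 3.99e-07). Fdft1, which overlaps Ctsb on the other strand, fell by 0.64 on the log2 scale in iM1 as well. It also fell by 1.85 in untransfected M1-like against M2-like cells, where Ctsb was not called, and its part in the Ctsb values was not tested. Ctsh, higher in M1-like cells than in M2-like ones in all 3 comparisons, fell to 456, 473 and 465 CPM in iM1 from 603, 594 and 678 CPM (log2 fold change -0.43 ± 0.09, edgeR adjusted p = 0.000442).

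Ctsk was the 1 gene of the 10 that rose, from 1009, 817 and 948 to 1347, 1210.2 and 1435 CPM with the Myc pool (log2 fold change 0.53 ± 0.11, edgeR adjusted p = 0.000607) and 1421, 1181 and 1405 CPM in iM1 (log2 fold change 0.53 ± 0.11, edgeR adjusted p = 0.000619). The fibroblast and mesothelial marker sum was 138 to 203 CPM with the negative pool, 106 to 157 CPM with the Myc pool and 115 to 177 CPM in iM1. These ranges overlapped, and the part of these markers in the Ctsk values was not tested. Ctss, the neighbour of Ctsk, moved the opposite way in these libraries.

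The fall of Ctsa was small and unstable (log2 fold change -0.23 ± 0.09, edgeR adjusted p = 0.0488, and -0.23 with the Myc pool). Leaving out iM1 replicate 2 or 3 or any negative pool sample ended the iM1 call (edgeR adjusted p 0.0571 to 0.228), and leaving out Myc pool replicate 2 or 3 or negative pool replicate 1 or 2 ended the other (edgeR adjusted p 0.0794 to 0.166). By total counts neither passed (edgeR adjusted p = 0.322 and 0.332), while the other 6 genes kept their calls in both knockdowns. Pltp, on the other strand of Ctsa, fell by 1.42 in iM1 and by 1.55 with the Myc pool on the log2 scale. It also fell by 1.75 in untransfected and by 1.71 in mock M1-like against M2-like cells, where Ctsa was not called. The part of Pltp in the Ctsa values was not tested. Ctsc and Ctsz, which rose in M1-like cells at 24 h, gave 0.05 (95% interval -0.24 to 0.34) and -0.09 (-0.28 to 0.09) in iM1. Set beside these, M1-like against M2-like values were 1.05 untransfected and 0.91 in mock cells for Ctsc, both above its interval. For Ctsz they were 0.24, above its interval, and -0.13, inside it. Ctse was uncertain, at -0.34 (-0.97 to 0.28).

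The Pparg, E2f1 and Stat6 pools moved no cathepsin gene past the threshold by edgeR. Unadjusted p-values were under 0.05 for 2 genes with the Pparg pool (Ctsd and Ctsz), 2 with the E2f1 pool (Ctsd and Ctsl) and 1 with the Stat6 pool (Ctsk), and DESeq2 called 1, 0 and 0. Few genes of any kind passed there, 5.74%, 0.91% and 1.51% of those tested. The gene nearest to a call was Ctsd with the Pparg pool, 21223, 19585 and 19671 CPM (log2 fold change -0.24 ± 0.08, edgeR adjusted p = 0.0677), which passed by DESeq2 (DESeq2 adjusted p = 0.0194). Ctsl gave 5757, 5445 and 5473 CPM with the E2f1 pool (log2 fold change -0.32 ± 0.11, edgeR adjusted p = 0.219), and Ctsk gave 1169.5, 954 and 1238 CPM with the Stat6 pool (log2 fold change 0.28 ± 0.11, edgeR adjusted p = 0.267).

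**Figure D4:**
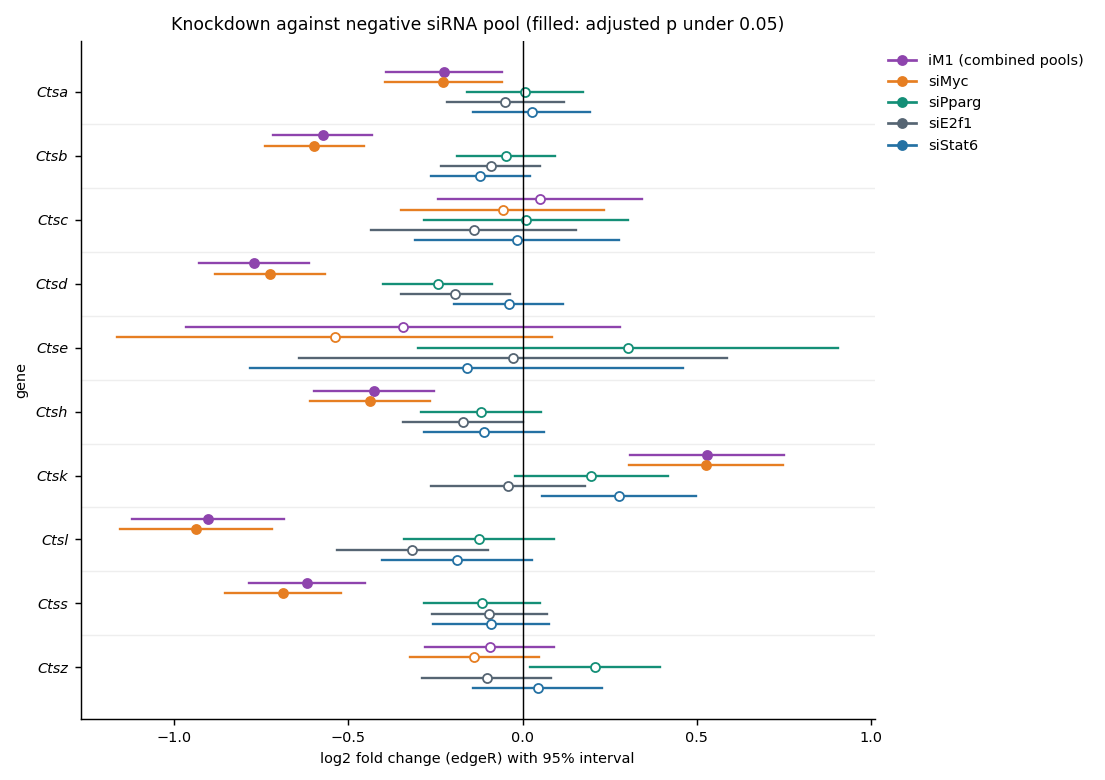
Log2 fold change (horizontal axis) of each cathepsin gene in iM1 and the 4 single knockdowns against the negative siRNA pool, with 95% intervals (1.96 SE) and filled points where edgeR's adjusted p was under 0.05. The iM1 and Myc points lie side by side for every gene, and the Pparg, E2f1 and Stat6 points are all open.

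Set against each other directly, iM1 and the Myc knockdown differed in none of the 10 genes by edgeR, against 0.0494% of all genes (0 at an unadjusted p under 0.05, none by DESeq2). The differences ran from -0.05 (95% interval -0.20 to 0.11, Ctsd) to 0.20 (-0.44 to 0.83, Ctse), and that of Ctsl was 0.04 (-0.18 to 0.25). iM1 also did not differ from the sum of the 4 single knockdown effects past the threshold (0 genes by edgeR or DESeq2, against 1.69% of all genes by edgeR). The nearest gene was Ctsl, whose fall in iM1 was 0.67 log2 units short of the summed effects (edgeR adjusted p = 0.291), and 2 genes had an unadjusted p under 0.05. The median of the 10 genes in this comparison was 0.27, against 0.00 over all genes tested. E2f1 and Stat6 fell less in iM1 (to 60.4% and 53.9% of the negative pool) than with their own pools (25.2% and 27.3%). Unequal knockdowns were thus compared, and the test cannot decide whether the effects add up. Against mock, iM1 kept the fall of Ctsl (-0.61), Ctsd (-0.85), Ctsb (-0.64), Ctss (-0.53) and Ctsh (-0.37) and the rise of Ctsk (0.77), with 18.1% of all genes lower and 19% higher. Ctsc was higher in iM1 than in mock (log2 fold change 0.51 ± 0.15, edgeR adjusted p = 0.00719), though not without iM1 replicate 3 (edgeR adjusted p = 0.0537).

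The iM1 cells were then set beside M1-like mock cells. Ctse, Ctsl, Ctsk and Ctsd were higher in iM1 and Ctsh, Ctss, Ctsb and Ctsc lower, against 27.2% and 25.6% of all genes. Ctsl was 3816, 3896 and 3396 CPM in iM1 and 1481, 1003 and 1352 CPM in M1-like mock samples (log2 fold change 1.53 ± 0.11, edgeR adjusted p = 5.25e-13), and Ctsh 456, 473 and 465 CPM against 921, 1101 and 1058 CPM (log2 fold change -1.14 ± 0.09, edgeR adjusted p = 2.05e-12). Ctsk was 1421, 1181 and 1405 CPM against 536, 531 and 517 CPM (log2 fold change 1.34 ± 0.11, edgeR adjusted p = 1.91e-11), and Ctss 7765, 7728 and 7533 against 14728, 12511 and 14203 CPM (log2 fold change -0.85 ± 0.09, edgeR adjusted p = 6.45e-10). For these genes the groups were far apart, with no overlap. The Ctsc call (-0.39) was lost without M1-like mock replicate 2 or 3 or iM1 replicate 1 or 2 (edgeR adjusted p 0.0675 to 0.124).

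Of 13 other cathepsin genes, only Ctsf and Ctso, cysteine proteases of the same family, passed the filter on low counts, and both were lower in M1-like cells than in M2-like ones in each experiment. Ctso was 137, 116 and 114 CPM in M2-like and 25.5, 25.7 and 32.7 CPM in M1-like cultures at 24 h (log2 fold change -2.12 ± 0.10, edgeR adjusted p = 2.04e-09), and Ctsf 2.18, 2.76 and 2.87 CPM against 1.35, 0.920 and 1.31 CPM (log2 fold change -1.12 ± 0.17, edgeR adjusted p = 7.75e-05). Both also fell in iM1 (-1.08 for Ctsf and -0.79 for Ctso). Ctsg and Ctsw, proteases of neutrophil granules and cytotoxic lymphocytes, stayed at or below 0.229 CPM in the 24 h cultures.

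Among the endogenous inhibitors, at 24 h 4 of the 5 tested of 11 listed were higher in M1-like cells than in M2-like ones and 1 lower, with a median log2 fold change of 2.18. Cst7, a cystatin that enters the endosomal route, was 0.764, 0.371 and 0.254 CPM in M2-like and 267, 241 and 196 CPM in M1-like cultures (log2 fold change 9.05 ± 0.23, edgeR adjusted p = 7.77e-12), and Serpina3g, a serpin that inhibits cathepsins, 0.695, 0.459 and 0.308 CPM against 1216, 1223 and 1252 CPM (log2 fold change 11.33 ± 0.17, edgeR adjusted p = 2.15e-13). Stfa3, a stefin, rose as well (2.18), at 0.838, 0.409 and 0.728 CPM. Cst3, the secreted cystatin C, was 619, 748 and 785 CPM in M2-like and 444, 455 and 497 CPM in M1-like cultures (log2 fold change -0.62 ± 0.09, edgeR adjusted p = 3.47e-05). Cstb, the cytosolic stefin B, was higher in M1-like cells at 24 h (log2 fold change 0.62 ± 0.07, edgeR adjusted p = 4.10e-06) and lower in the untransfected groups of the other experiment (log2 fold change -0.67 ± 0.12, edgeR adjusted p = 1.26e-05). In that experiment 2 of 4 tested inhibitors were higher (Cst7 8.39, Serpina3g 6.56) and 2 lower. In iM1, Cst7 rose (0.481, 0.334 and 0.458 to 1.02, 2.12 and 1.40 CPM; log2 fold change 1.82 ± 0.56, edgeR adjusted p = 0.0146) and Cst3 fell (-0.64), but Cst7 stayed far below the 32.6, 19.8 and 33.1 CPM of M1-like mock samples. The folds of Cst7 and Serpina3g rest on values near 0 in the M2-like libraries.

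Among partners and processing genes, Lgmn, the asparaginyl endopeptidase that trims procathepsins, fell in M1-like cells from 1507, 1664 and 1678 to 279, 300.2 and 286 CPM at 24 h (log2 fold change -2.49 ± 0.07, edgeR adjusted p = 1.10e-11) and less in the untransfected groups (-0.76). Cd74, the invariant chain, rose (3.09 and 1.88), while in iM1 it fell (log2 fold change -0.51 ± 0.12, edgeR adjusted p = 0.00195). Neu1, the neuraminidase that Ctsa protects, rose by 0.51 at 24 h and by 0.43 in iM1 on the log2 scale. Of 5 such genes, 2 were higher and 2 lower in M1-like cells at 24 h (median 0.06), and 1 was higher and 4 lower in iM1 (median -0.50). By total counts Neu1 did not pass at 24 h (0.07, edgeR adjusted p = 0.443).

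Of 6 genes for mannose 6-phosphate sorting, 1 was higher and 4 lower in M1-like cells in either experiment (medians -0.34 at 24 h and -0.44). Sort1, the sorting receptor sortilin, went from 270.4, 285 and 291 to 9.75, 8.40 and 8.55 CPM at 24 h (log2 fold change -4.99 ± 0.08, edgeR adjusted p = 2.55e-13) and was also lower in iM1 (log2 fold change -1.36 ± 0.15, edgeR adjusted p = 5.92e-08). M6pr, the cation-dependent mannose 6-phosphate receptor, was the higher gene (0.82 and 0.73), and Gnptg, a subunit of the enzyme that makes the tag, was lower at 24 h (-0.94). Of the MiT/TFE factors, which drive lysosomal genes through the E-box described above, Tfeb (-1.64) and Tfec (-1.38) were lower and Mitf (0.15) higher in M1-like cells at 24 h, and all 4 were lower in the untransfected groups (Mitf -0.99, Tfe3 -0.73, Tfeb -1.38, Tfec -0.43). By total counts Mitf turned to -0.28 at 24 h (edgeR adjusted p = 0.00143). In iM1 1 of the 4 was lower, Mitf (-0.41), and Tfeb was at 0.01. Of 8 lysosomal membrane genes, 1 was higher and 3 lower in M1-like cells at 24 h (Cd63 -0.93, Npc1 -0.53, Scarb2 0.31), whereas 7 were lower and none higher in iM1 (median -0.35). By total counts Scarb2 turned to -0.12 at 24 h, and Npc1 and Scarb2 did not pass in iM1 (edgeR adjusted p = 0.105 and 0.404).

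**Figure D5:**
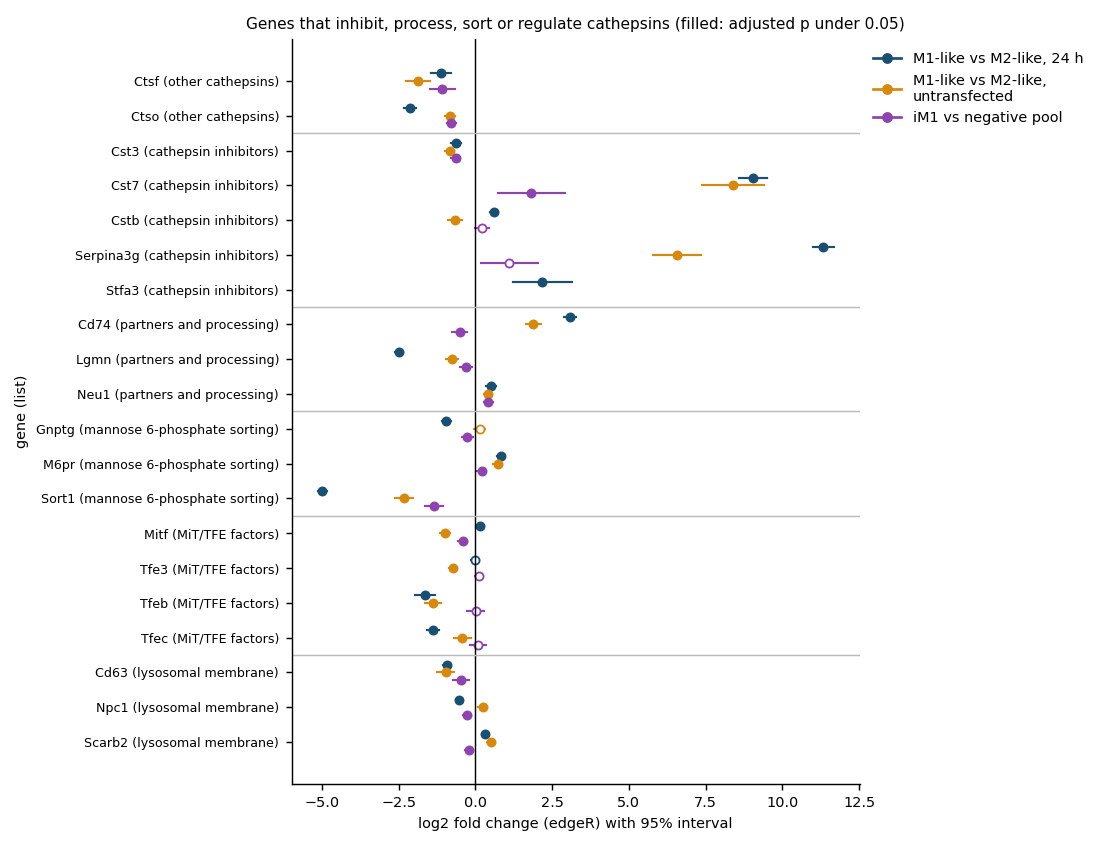
Log2 fold change (horizontal axis) of the named genes that inhibit, process, sort or regulate cathepsins, in M1-like against M2-like cells at 24 h and in the untransfected groups, and in iM1 against the negative pool, with 95% intervals (1.96 SE) and filled points where edgeR's adjusted p was under 0.05. Cst7 and Serpina3g lie far to the right in both M1-like comparisons, Sort1 lies left of 0 in all 3, and Cstb, Mitf and Npc1 have filled points on opposite sides of 0 in the M1-like comparisons (Mitf not by total counts).

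Across the 12 condition means of the reprogramming experiment, the 10 genes did not share 1 pattern. On log2 CPM, Ctsd and Ctsl had a Pearson r of 0.909 and Ctsh and Ctss 0.861, while Ctsc and Ctsd had -0.806 and Ctsh and Ctsk -0.750. These are descriptions over 12 points, several of which share a cell state. Among 10133 genes with a symbol, those most like Ctsc were Il18bp (0.992), Gbp3 (0.991) and Igtp (0.987), the latter pair being interferon-inducible GTPases. Those most like Ctsh were Irf8 (0.987), an interferon regulatory factor, Zyx (0.980) and Ankib1 (0.977). Ctsl was closest to Ppfibp1 (0.994), Grb10 (0.992) and Cnrip1 (0.991).

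Ctsd was closest to 3 annotated pseudogenes of Rpl10, which can share reads with near-identical copies and are uncertain for that reason, Rpl10-ps6, Rpl10-ps3 and Rpl10-ps1 (0.996 to 0.995). Ctse was closest to Fgd2, Dnajc27 and Grn (0.972 to 0.967), the last encoding the lysosomal protein progranulin, and Ctsb to Rfx7, Gm2a and Pgrmc1 (0.955 to 0.945), of which Gm2a encodes a lysosomal lipid-binding activator. Ctss was closest to Braf, Vopp1 and Bscl2 (0.960 to 0.950), Ctsk to Rpl7l1, Hace1 and Atp5b (0.975 to 0.961), Ctsz to Pou3f1, Edem2 and Rcn1 (0.954 to 0.937) and Ctsa to Os9, Ecm1 and Nfatc2 (0.902 to 0.856).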

How the data were processed

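Raw read counts per gene, as deposited by the authors, were used for 18 polarization and 36 reprogramming libraries. The authors trimmed reads with Trimmomatic, aligned them to GRCm38 with TopHat2 and counted them with featureCounts; versions, strand setting and treatment of multiply mapped reads are not given in the sources used here, and reads shared by overlapping or near-identical genes may therefore be lost or doubly assigned. The members and gene lists were chosen with earlier results of these data known.

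The technical replicates of each culture were summed. Genes were filtered with filterByExpr (minimum count 10), scaled by TMM and tested with edgeR 4.0.16 (quasi-likelihood F test, 1 model per experiment, Benjamini-Hochberg over all genes, called at an adjusted p under 0.05). The SE is the absolute log2 fold change divided by the square root of F. CPM and RPKM were computed from the counts, RPKM with the union of GENCODE exons. Promoter sequences came from RefSeq. Named genes were all members, the siRNA targets, for each list up to 3 called genes with the largest 24 h M1-like against M2-like change, a set of genes always named (Cst3, Cstb, Cst7, Lgmn, the MiT/TFE factors, Ctsf, Ctso, Ctsg and Ctsw) and the 3 genes most like each member by Pearson r over condition means. Genes overlapping a member were named from the annotation.

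Alternatives were DESeq2 1.42.0, RLE factors, all genes with a count, a filter of 10 counts in each sample, a replicate block, only the 2 groups compared, an added limit of 1 on the absolute log2 fold change, the first technical replicate alone, each library left out and, chosen after seeing the data, total counts without scaling factors. In simulated data edgeR recovered 195 of 200 genes changed by 1 log2 unit in the 24 h M1-like against M2-like comparison (15926 genes) and 178 of 200 in the iM1 comparison (13861 genes). It also called 11 and 2 unchanged genes. Because only 200 genes were changed, the simulation could not test the scaling of libraries in which many genes change. In the polarization experiment the replicate number is the mouse per the labels, so the cultures are paired; deviations of same-mouse cultures correlated with a median r of 0.25, over 0.1 in 6 of 9 pairs. One list of markers of another cell type, computed beside Ctse, is not reported here.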

Additional observations from a re-analysis of the deposited data

Results flagged for a closer look

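Several genes had every sample of one group above, or below, every sample of the other in the polarization experiment and the opposite order in the reprogramming experiment. Only the cathepsin genes followed here and the genes named from the lists were considered, some of the latter named for their large change in the polarization experiment. The share of all genes with such a reversal was not computed, so whether these cases are unusual cannot be told. The difference between the experiments was not tested. The experiments also differed in read type and sequencing site. Transfected cells were cultured for longer, the M2-like ones without IL-4 after transfection, while the collection time of untransfected groups was not given. These differences cannot be told apart from each other or from the effect of time, and all values are log2 fold changes.

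For M1-like against M2-like cells, Ctsk was 0.49 at 24 h, -0.57 in the untransfected groups and -0.57 in the mock groups. Cstb, the stefin B inhibitor, was 0.62, -0.67 and -0.64, and Npc1, a lysosomal cholesterol transporter, -0.53, 0.24 and 0.21. Ctsb was 0.12 at 24 h, which did not pass edgeR's test, and -0.17 in the mock groups. By total counts the 24 h values of Ctsk, Ctsb, Cstb and Npc1 were 0.05, -0.31, 0.18 and -0.96.

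For M1-like against M0 cells, Cstb was 0.76 at 24 h, -0.60 untransfected and -0.58 in mock cells. Mitf was 0.62, -0.55 and -0.60, and Ctsk was 0.38 at 24 h and -0.30 in mock cells. By total counts the 24 h values of Cstb, Mitf and Ctsk were 0.33, 0.19 and -0.05.

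For M2-like against M0 cells, Ctsd was -0.53 at 24 h and 0.28 untransfected, Ctsb -0.20 and 0.26, Ctsf -0.60 and 0.48, Ctso 0.13 and -0.17, and Npc1 0.10 and -0.13. Sort1 was -0.29 at 24 h, 0.24 untransfected and 0.40 in mock cells. Of these values in the reprogramming experiment, those of Ctsf, Ctso, Npc1 and Sort1 did not pass edgeR's test, and at 24 h those of Ctso and Npc1 did not either.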

How the results depend on the processing

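Of 92 calls on the 10 genes, 70 kept an adjusted p under 0.05 and their direction in every alternative fit, the limit of 1 below aside, and 22 did not in at least 1. The cause of the shifts below was not tested. By total counts 3 values changed sign: Ctsb at -0.312 in 24 h M1-like against M2-like cells, Ctsk at -0.0451 in 24 h M1-like against M0 cells and Ctsb at 0.0504 in mock M1-like against M2-like cells. That scaling also gave 2 genes higher (5 by TMM) in untransfected M2-like against M0 cells, 3 lower (5) in mock M1-like against M0 cells, 2 higher (1) with the negative pool against mock and 1 lower (0) with the Pparg pool. Over all 14172 genes tested, it gave 960 (1517 by TMM), 2990 (4257) and 1106 (945) in the first 3 of these. With the Pparg pool it gave 395 lower.

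With a limit of 1 on the absolute log2 fold change, no gene was left in untransfected M2-like against M0 (0 higher, 0 lower), mock M2-like against M0 (0), mock M0 against M0 (0), the negative pool against mock (0), iM1 against mock (0 and 0), iM1 against the negative pool (0 and 0) and the Myc pool (0 and 0). It left 0 higher and 1 lower in 24 h M2-like against M0, 1 higher in untransfected M1-like against M2-like, 2 higher in M1-like against M0, 0 higher and 3 lower in mock M1-like against M2-like and against M0 cells, and 1 lower in iM1 against mock M1-like cells. The share of all genes left by this limit was not computed.

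DESeq2, RLE factors, the filter on every sample and the replicate block each gave 5 genes higher (3 by the main test) for mock transfection of M0 cells, and DESeq2 gave 1 lower with the Pparg pool. RLE factors left 0 lower and no filter 2 lower (1) in untransfected M2-like against M0 cells. Over all genes these fits gave 1200 of 14172 and 1293 of 24040 lower, against 1303 of 14172 by the main test. No filter gave 3 higher with the negative pool and 1 lower with the E2f1 pool, and fitting only the 2 groups gave 0 higher in mock M2-like against M0 cells, 3 higher with the negative pool, 1 lower with the Pparg pool and 1 lower with the E2f1 pool. Over all genes, no filter gave 1017 and 176 of 24040 in these. Fitting the 2 groups gave 78 of 12865, 872 of 12971, 525 of 13061 and 231 of 13043, in the same order. The replicate block gave 2 higher in mock M2-like against M0 cells, 3 higher with the negative pool, 1 lower with the Pparg pool and 1 higher with the Stat6 pool. Over all 14172 genes it gave 478, 1183, 588 and 121 in the same order. In the reprogramming experiment samples share only a number, and 35 of 36 samples correlated best with their own number (median r 0.18), a hint from the data and not the design. With the mouse as a block at 24 h, the call of Ctsb in M2-like against M0 cells was the one lost (adjusted p = 0.0542).

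Leaving out 1 library gave 1 to 2 genes higher in 24 h M2-like against M0 cells, 2 to 5 higher and 0 to 1 lower in untransfected M2-like against M0 cells, 3 to 5 lower in mock M1-like against M2-like cells, 0 to 1 higher in mock M2-like against M0 cells, 2 to 5 higher for mock transfection of M0 cells and 0 to 1 higher with the negative pool. Over all genes, the first 3 of these ran from 1391 to 2270, 1111 to 1365 and 862 to 1160. The others ran from 3931 to 4101, 152 to 351, 1258 to 1492 and 635 to 865. With the longest transcript as the length, 94 of 150 RPKM levels moved by more than 1 SD. Depth limits Ctse most, which had the fewest reads of the 10 genes, and its intervals span differences that the other genes would show.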
